A study of Mus musculus with 12 samples.

Results

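The regions described here are the stretches of the mouse genome in which dCas9 was recovered with a targeting guide and also with a non-targeting one. All peaks of the 6 anti-FLAG libraries on assembled chromosomes were merged where they shared at least 1 bp, and the shared regions were chosen by the presence of at least 1 dCas9:gRNA3 peak and at least 1 dCas9:gRNAscr peak. This gave 922 shared regions of 7594 merged regions, or 12.1%. The shared regions had a median width of 389 bp (206 to 1144 bp) and held 2602 of the 10435 peaks.

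Mouse NIH-3T3 fibroblasts, an established line, had been transduced with a lentivirus for FLAG-tagged dCas9 and GFP under the hUbC promoter and sorted for GFP, then with a gRNA virus and selected with puromycin. All of them had received an empty vector in place of Cre recombinase. One group expressed gRNA3, which targets the start of the shorter isoform of Il33, and the other gRNAscr, a scrambled guide, with 3 anti-FLAG and 3 input libraries each. The submitters' files hold peaks for the 6 anti-FLAG libraries and none for an input. The study's methods call the replicates biological, while neither they nor the labels say whether each came from its own transduction or culture, so p-values measure the spread between these libraries. Expression was not measured, so the cell line could not be checked against marker genes.

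dCas9 is a Cas9 without nuclease activity, which searches DNA for the short PAM motif NGG and binds stably where its guide pairs with the adjacent bases. Pairing of the bases next to the PAM, the seed, is needed first. Chromatin immunoprecipitation can also recover DNA at which a protein is present without a guide match, and repeated sequence and copy number affect how reads are placed. AP-1, a dimer of Fos and Jun family proteins, binds TGAGTCA at many enhancers of fibroblasts.

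Sequences are shown for a pair of sets, chosen to set regions found in all 6 libraries beside regions with AP-1 letters. The first are regions with a peak in all 6 libraries, taken by rank, of which the strongest is left out because 146 of the 151 bases around its summit are a single run of T. The lines give 151 bases of the plus strand of GRCm38 (mm10) around the summit, and capitals would mark TGAGTCA or its reverse complement, which none of them holds.
Satl1/Apool region, chrX:112370904-112371054: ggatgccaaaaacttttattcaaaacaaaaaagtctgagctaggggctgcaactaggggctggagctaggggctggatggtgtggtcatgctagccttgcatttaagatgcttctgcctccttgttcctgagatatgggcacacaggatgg
Gm21847 region, chr5:15522230-15522380: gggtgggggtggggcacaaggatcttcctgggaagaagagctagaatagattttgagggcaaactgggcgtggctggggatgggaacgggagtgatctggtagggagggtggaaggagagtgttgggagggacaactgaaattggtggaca
Gm17019 region, chr5:15031486-15031636: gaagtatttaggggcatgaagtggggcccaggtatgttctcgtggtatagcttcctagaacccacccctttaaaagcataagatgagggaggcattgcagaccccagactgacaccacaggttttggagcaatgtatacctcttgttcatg
Speer4c region, chr5:15711779-15711929: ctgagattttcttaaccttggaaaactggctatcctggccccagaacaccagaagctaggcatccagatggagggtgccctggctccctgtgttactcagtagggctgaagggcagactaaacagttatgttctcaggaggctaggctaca
Speer4c/Speer4cos region, chr5:15703433-15703583: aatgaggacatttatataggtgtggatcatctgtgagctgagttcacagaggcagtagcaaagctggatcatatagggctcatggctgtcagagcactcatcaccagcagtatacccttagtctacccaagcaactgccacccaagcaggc

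The second are shared regions with TGAGTCA on either strand within 25 bp of the summit and outside multicopy sequence, taken by number of libraries and then by rank. They were chosen after their values were seen. The lines give 71 bases of the plus strand of GRCm38 (mm10), with TGAGTCA or its reverse complement in capitals, to be set beside the target of gRNA3 with its 10 PAM-proximal bases in capitals.
Gm11216 region, chr4:64098452-64098522: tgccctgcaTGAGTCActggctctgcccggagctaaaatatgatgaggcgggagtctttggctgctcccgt
Nr1h4 region, chr10:89527183-89527253: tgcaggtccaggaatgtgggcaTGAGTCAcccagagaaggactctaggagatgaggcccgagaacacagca
Gm29064 region, chr4:95426624-95426694: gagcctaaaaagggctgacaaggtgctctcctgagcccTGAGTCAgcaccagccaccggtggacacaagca
Zfp334 region, chr2:165392287-165392357: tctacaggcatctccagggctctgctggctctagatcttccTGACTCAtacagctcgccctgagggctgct
Gm27580 region, chr4:89466973-89467043: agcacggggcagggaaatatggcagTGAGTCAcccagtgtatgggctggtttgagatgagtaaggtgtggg
Slit3 region, chr11:35065970-35066040: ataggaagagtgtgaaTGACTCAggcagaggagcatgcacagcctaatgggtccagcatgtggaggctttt
gRNA3 target (plus strand), chr19:29945780-29945799: cgactgtgttAGCTCTCCAC

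Most shared regions rested on few libraries. Of the 922, 407 (44.1%) had a peak in exactly 2 libraries, 347 in 3, 123 in 4, 27 in 5 and 18 in all 6, and 137 had a peak in at least 2 libraries of each guide. dCas9:gRNA3 replicate 3 held a peak in 874 of them and dCas9:gRNAscr replicate 2 in 845, and 332 were found in this pair alone. Without dCas9:gRNAscr replicate 2 the number of shared regions was 248, and without dCas9:gRNA3 replicate 3 it was 519. At the edge of the rule, the regions joined by the fewest bases were one in an intron of Mrtfb, joined by 12 bases, and one between genes near Gm32679, joined by 45. The former had a fold enrichment of 5.06 and 4.47 in dCas9:gRNA3 replicates 2 and 3 and 6.01 in dCas9:gRNAscr replicate 2, and the latter 4.06 and 5.16 in dCas9:gRNA3 replicate 3 and dCas9:gRNAscr replicate 2. The nearest misses were a dCas9:gRNA3 region in an intron near the start of Derl3 (5.84 and 3.88 in replicates 1 and 3) and one near Stard13 (5.02 in replicate 3), which lay 3 and 11 bases from a dCas9:gRNAscr peak. The values on either side of the edge were alike in range.

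**Figure D1:**
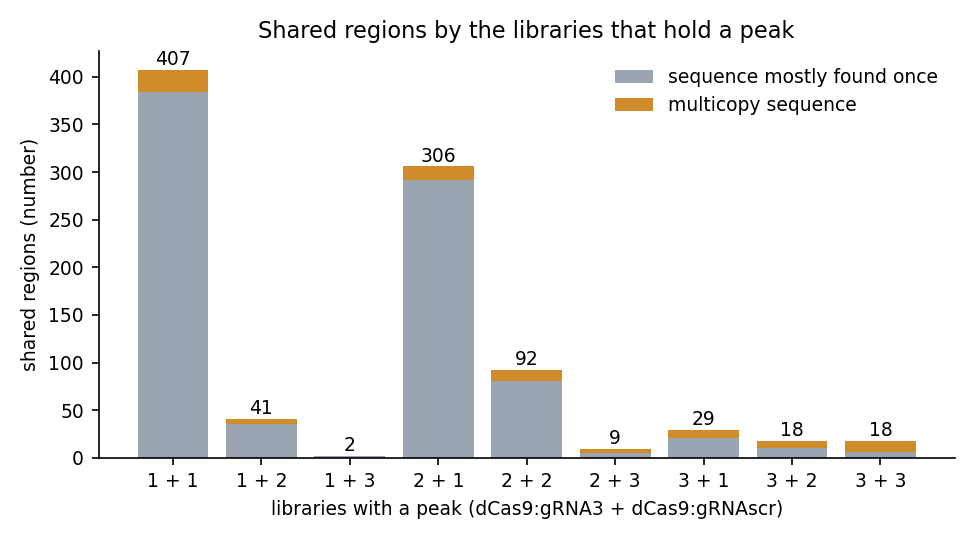
Number of shared regions (vertical axis) by the number of dCas9:gRNA3 and dCas9:gRNAscr libraries with a peak (horizontal axis), with regions of multicopy sequence in orange. The classes 1 + 1, with 407 regions, and 2 + 1, with 306, hold most of them, while 12 of the 18 regions in class 3 + 3 are multicopy.

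Fold enrichment, the pileup over the local background at a summit with 1 added to each, is part of what made each peak. It is given here as a description. The median fold enrichment of shared peaks was 6.86, 5.79 and 6.21 in dCas9:gRNA3 replicates 1, 2 and 3 and 5.91, 5.79 and 6.22 in dCas9:gRNAscr replicates 1, 2 and 3. For the other peaks of the same libraries it was 7.13, 5.15, 5.07, 6.60, 5.83 and 8.65 in that order. Ranked by fold enrichment within a library, where 0 is the strongest, shared peaks had a median percentile of 36.2 and 26.5 in dCas9:gRNA3 replicates 2 and 3, ahead of the other peaks at 54.4 and 53.4. In dCas9:gRNA3 replicate 1 and in the dCas9:gRNAscr libraries the median lay between 50.2 and 58.5, behind the other peaks at 22.2 to 46.5. Of the strongest 10% of a library's peaks, 26.3% were shared in dCas9:gRNA3 replicate 1 and 71.6% in dCas9:gRNAscr replicate 2, the lowest and highest of the 6. Of all peaks, 36.8 and 72.8% were shared in these libraries. The share in the strongest 10% was also below that of all peaks in dCas9:gRNAscr replicates 1 and 3 (60 and 37.5% against 77.2 and 73.8%). It was above it in dCas9:gRNA3 replicates 2 and 3 (43.3 and 33.5% against 25.4 and 13.2%).

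The controls of the study lay outside the shared regions. The gRNA3 target had a peak in 3 dCas9:gRNA3 and 0 dCas9:gRNAscr libraries, with the nearest shared region 259784 bp away. The start of Actb, the negative control, had no peak within 1 kb in any library, and its nearest shared region was 129429 bp away. Matches to the gRNA3 seed were also rare in shared regions. A match of the last 6 guide bases with NGG after them, in either orientation within 200 bp of the summit, was found in 21 of 922 (2.28%, exact binomial 95% confidence interval 1.41 to 3.46%). It was found in 1.63% of the windows 5 kb to either side, and in 15.8% (13.6 to 18.2%) of the 998 regions with peaks in 2 or 3 dCas9:gRNA3 libraries and none of gRNAscr. In the 5332 regions of 1 dCas9:gRNA3 library alone it was found in 5.25% (4.67 to 5.88%), and in the 342 of dCas9:gRNAscr alone in 0.585% (0.0709 to 2.10%). With 8 bases the shared regions held 2 matches and with 10 bases 1. Intervals cover counting error only, and regions are not replicates. Reads that fit several places equally well are put at 1 of them by the aligner's default, which bears on all repeated sequence.

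The shared regions were mostly distal, as were the other regions. Of the 922, 107 (11.6%, exact binomial 95% confidence interval 9.61 to 13.8%) had their summit within 1 kb of an annotated transcript start, 32 lay in exons, 418 (45.3%) in introns and 365 (39.6%) between genes. The median distance to a start was 9796 bp, and 456 were over 10 kb away. The other classes were regions of 2 or 3 dCas9:gRNA3 libraries alone, of 1 such library and of dCas9:gRNAscr alone. In that order, they had 10.7, 11.2 and 8.19% at starts, 47.6, 45.2 and 47.95% in introns and 39.0, 40.1 and 40.9% between genes. Of the shared regions, 42 (4.56%) lay within 1 kb of the start of a protein-coding transcript, with no such count for the other classes. Of the windows 5 kb to the left and right, 9.11 and 7.27% had their centre within 1 kb of a start. Shared regions had a median of 4 CpGs within 200 bp of the summit (quartiles 3 and 6), and 1 of 922 had 20 or more. The median was 3 in the windows on either side, so the low number of CpGs was not particular to the shared regions.

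Position and base composition, which the rule did not use, were compared between shared and other peaks of the same library. The share within 1 kb of a start was 15.5, 13.9 and 11.7% of shared peaks in dCas9:gRNA3 replicates 1, 2 and 3 and 13.8, 11.4 and 17.7% in dCas9:gRNAscr replicates 1, 2 and 3. For other peaks it was 16.4, 11.1, 11.1, 12.1, 8.25 and 9.09%. It was higher for shared peaks in 5 of 6 libraries, by a mean of 2.65 ± 3.29 percentage points (SD, n = 6), which was not past the threshold (two-sided exact permutation test over 64 sign assignments, p = 0.0938, adjusted p = 0.25 over 6 tests). Without multicopy regions the mean difference was -1.3 percentage points, so its direction rested on them. Over 1 kb from a start, 57.4% of shared and 56.7% of other peaks lay in a gene, a mean difference of 0.657 ± 1.79 percentage points (exact permutation test, adjusted p = 0.412).

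The median number of CpGs was 3 or 4 in shared peaks and 4 to 5 in other peaks, a mean difference of -0.75 ± 0.758 (SD, n = 6; exact permutation test, p = 0.125, adjusted p = 0.25). Median G+C was 47.6 to 48.1% in shared peaks and 47.1 to 49.4% in other peaks, with a mean difference of -0.395 ± 0.901 percentage points (exact permutation test, adjusted p = 0.412). The number of NGG sites differed by -0.0833 ± 2.44 (exact permutation test, adjusted p = 1) and the share with a tandem repeat by 1.3 ± 1.91 percentage points (exact permutation test, adjusted p = 0.25). None of these differences was past the threshold, and the libraries share the regions, so their differences are not fully independent. Between the guides, the share of shared peaks at starts was 13.7 ± 1.91% for dCas9:gRNA3 and 14.3 ± 3.22% for dCas9:gRNAscr (SD, n = 3 each; two-sided exact permutation test, p = 1, where the smallest possible is 0.1).

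**Figure D2:**
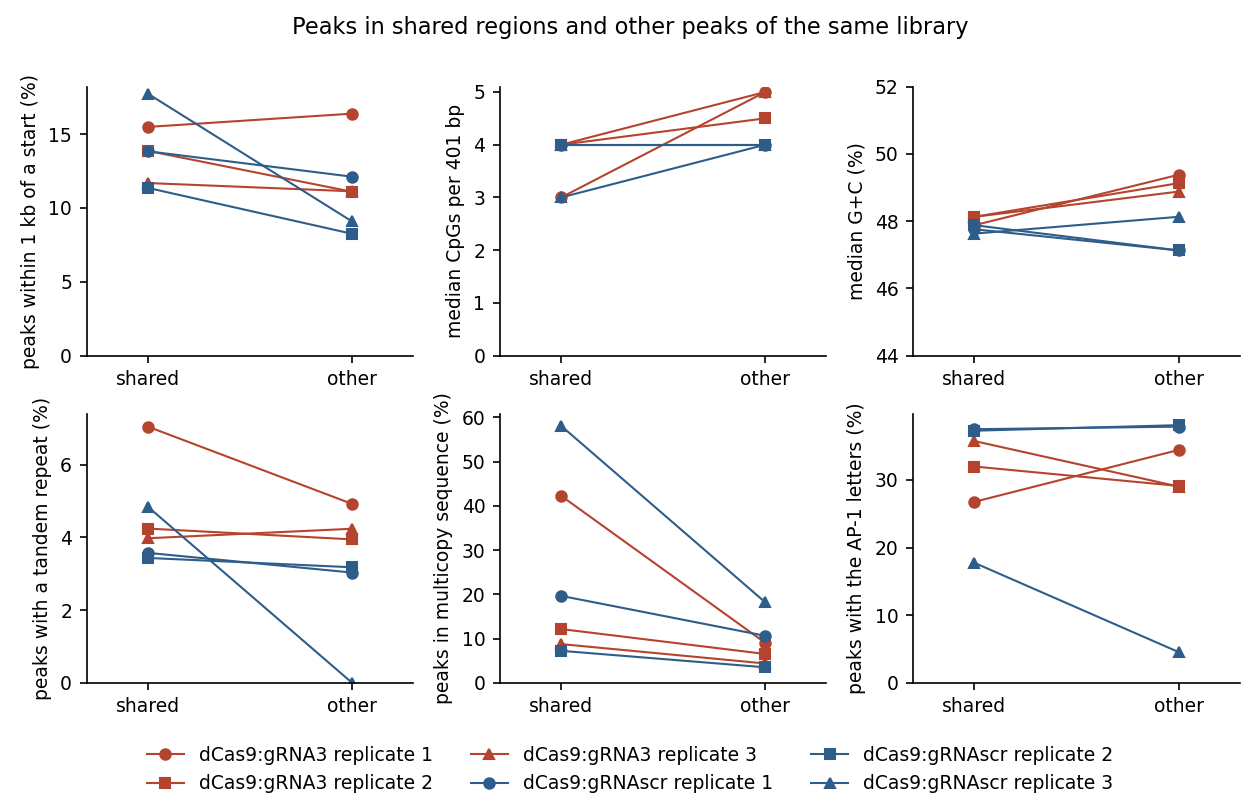
Values of peaks in shared regions and of other peaks in each of the 6 libraries (1 line per library, red dCas9:gRNA3, blue dCas9:gRNAscr), for 6 features named on the vertical axes; the G+C axis does not start at 0. The share in multicopy sequence falls from shared to other peaks in every library, while no other feature moves one way in all 6.

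Shared regions differed from the sequence around them. Within 200 bp of the summit, median G+C was higher in shared peaks than in windows of the same width 5 kb to either side in 6 of 6 libraries, by a mean of 5.23 ± 0.925 percentage points (SD, n = 6; two-sided exact permutation test, p = 0.0312, the smallest that 6 libraries allow, adjusted p = 0.0469). The share of bases that the reference masks as repeats was lower by 17.9 ± 2.23 percentage points, with 14.0% in shared peaks and 31.9% in the windows (exact permutation test, adjusted p = 0.0469). It did not differ past the threshold from that of other peaks (exact permutation test, adjusted p = 0.375). These comparisons, and those of multicopy sequence and AP-1 letters, were added after the data were seen, with p-values adjusted over 6 such tests.

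TGAGTCA, the letters bound by AP-1, stood within 200 bp of the summit in 331 of the 922 shared regions (35.9%, exact binomial 95% confidence interval 32.8 to 39.1%), and 308 of the 331 were away from starts. By library, the share of shared peaks with these letters was 26.8, 32.0 and 35.8% in dCas9:gRNA3 replicates 1, 2 and 3 and 37.5, 37.3 and 17.7% in dCas9:gRNAscr replicates 1, 2 and 3. In the windows 5 kb to either side it was 3.23 to 8.0%. The difference was 24.6 ± 5.96 percentage points (SD, n = 6), positive in 6 of 6 libraries (two-sided exact permutation test, p = 0.0312, adjusted p = 0.0469). Many of the same regions were counted in several libraries. Of 32851 RefSeq promoters of 300 bp, 5.20% held the letters. They gathered near the summit, with 1.3 per kb within 50 bp and 0.213 per kb from 500 to 1000 bp.

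**Figure D3:**
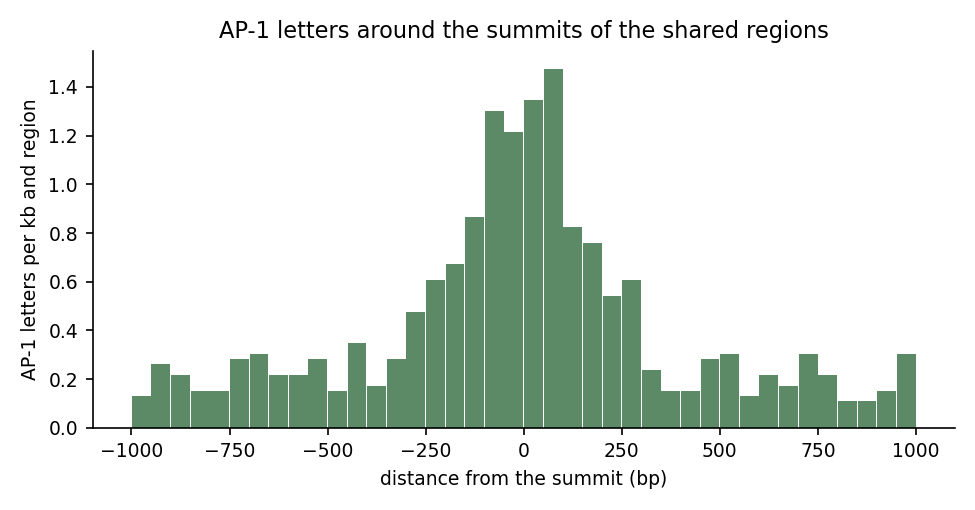
Occurrences of TGAGTCA on either strand per kb and region (vertical axis) in bins of 50 bp by distance from the summit (horizontal axis, bp) over the 922 shared regions. The 4 bins within 100 bp of the summit hold 1.22 to 1.48 per kb, above every bin farther out.

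AP-1 letters were also frequent in dCas9 peaks outside the shared regions. They stood in 32.6% of the regions with peaks in 2 or 3 dCas9:gRNA3 libraries alone, in 27.9% of those in 1 dCas9:gRNA3 library and in 37.4% of the 342 regions of dCas9:gRNAscr alone. Within a library, shared peaks exceeded other peaks by 2.33 ± 7.14 percentage points, in 3 of 6 libraries (exact permutation test, p = 0.5, adjusted p = 0.5). Once multicopy regions were left out, the share was higher in shared peaks in 6 of 6 libraries, by 5.43, 5.10 and 8.6 percentage points in dCas9:gRNA3 replicates 1, 2 and 3 and by 4.32, 0.269 and 29.1 in dCas9:gRNAscr replicates 1, 2 and 3. The mean was 8.80 ± 10.3 percentage points (SD, n = 6; exact permutation test, p = 0.0312, adjusted p = 0.0375 over 5 tests without these regions). It was 4.74 without dCas9:gRNAscr replicate 3, which then had 26 shared and 18 other peaks.

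The other 8 sequences searched, on both strands within 200 bp, gave smaller contrasts with the flanks. GGAATG, bound by TEAD factors, stood in 32.8% of shared regions and in 21.6 and 22.9% of the windows on the left and right. The TATA box, TATAAA, stood in 13.8% against 30.8 and 28%, and CCAAT, the NF-Y letters, in 41.5% against 47.7 and 47.9%. GGAAGT, of ETS factors, stood in 26.2% against 22.7 and 22.3%. The Sp1 letters GGGCGG stood in 5.86% against 3.58 and 3.69%, and in 35.7% of the promoters, which are narrower at 300 bp. CACGTG was found in 4.56%, and TGACGTCA and GCGCATGC in 3 regions each. None of the 9 differed between shared and other peaks past the threshold (exact permutation tests over 6 libraries, adjusted p from 0.562 to 0.969 over 9 tests). A match is a description of the letters in the window and not a measured binding site.

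A smaller set of shared regions lay in sequence with several copies. A region was called multicopy where at least 50% of the 31-base words within 200 bp of its summit had at least 2 copies on the assembled chromosomes. This held for 85 of the 922 shared regions (9.22%) and for 308 of the 6672 other regions (4.62%). Of the others, it was 6.21% of the 998 regions of 2 or 3 dCas9:gRNA3 libraries alone. It was 4.3% of the 5332 of 1 such library and 4.97% of the 342 of dCas9:gRNAscr alone. Shared regions found in 2 or 3 libraries had 5.65 and 5.48%. Only shared regions could be found in more than 3 libraries, so sharing and number of libraries cannot be told apart here. By library, 42.3, 12.1 and 8.74% of shared peaks were multicopy in dCas9:gRNA3 replicates 1, 2 and 3 and 19.6, 7.22 and 58.1% in dCas9:gRNAscr replicates 1, 2 and 3, against 3.49 to 18.2% of other peaks. The share was higher in shared peaks in 6 of 6 libraries, by 16.0 ± 16.2 percentage points (SD, n = 6; two-sided exact permutation test, p = 0.0312, adjusted p = 0.0469). Without dCas9:gRNAscr replicate 3 the mean was 9.79, and without dCas9:gRNAscr replicate 2 it was 27.3. The libraries with the fewest peaks, dCas9:gRNA3 replicate 1 and dCas9:gRNAscr replicate 3, had the highest shares.

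By the number of libraries in which a region was found, the multicopy share was 5.65% with 2 libraries, 5.48% with 3, 15.4% with 4, 44.4% with 5 and 66.7% with 6, while AP-1 letters stood in 33.9, 38, 41.5, 33.3 and 5.56% of the same classes. Recovery in more libraries is part of the rule, so this is a description. The highest local background at a summit, relative to the genome-wide level of the library, had a median of 2.35 in multicopy and 1.39 in other shared regions. This is the highest over a region's peaks, so it can be higher where more libraries have a peak. Its median was 1.34 in regions of 2 libraries and 4.51 in those of 6. The part of local background in the result was not tested.

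**Figure D4:**
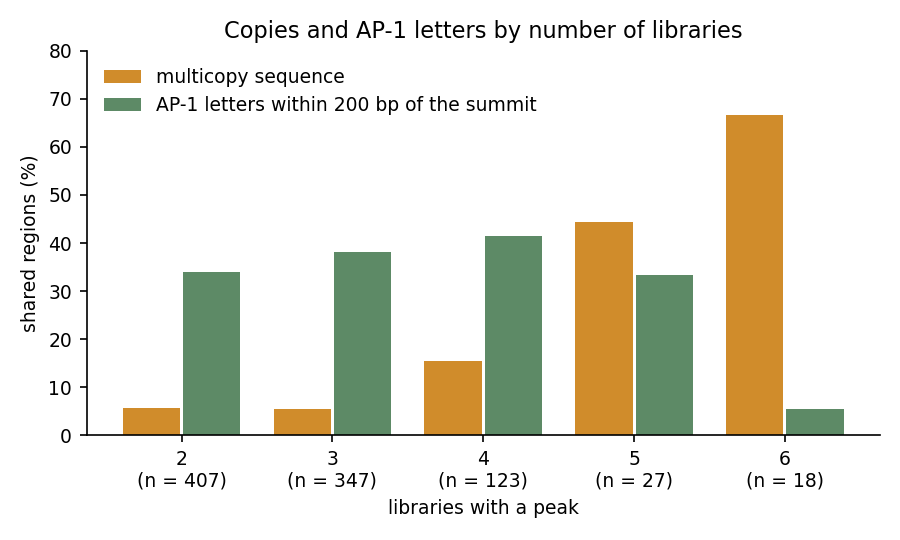
Percent of shared regions in multicopy sequence (orange) and with TGAGTCA within 200 bp of the summit (green) by the number of libraries with a peak, with the number of regions under each pair. Multicopy sequence makes up 66.7% of the 18 regions found in all 6 libraries and 5.65% of those found in 2, and AP-1 letters stand in 5.56% of the 18.

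The regions found in all 6 libraries lay mainly in multicopy sequence. The largest groups of shared regions within 100 kb of each other lay on chromosome 5, with 16 regions from 15463346 to 15714803 and 11 from 14914484 to 15053925, around genes of the Speer4 family, which is expressed in the testis. All 27 were multicopy, as were groups of 9, 7 and 4 on chromosome 8 among pseudogenes. Of the 18 regions with a peak in all 6 libraries, 11 were on chromosomes 5 and 8.
Ordered by median rank, the first was a region on chromosome 10 from 72297085 to 72297425, between genes and nearest to Gm9923, with a fold enrichment of 9.73, 19.1 and 18.6 in dCas9:gRNA3 replicates 1, 2 and 3 and 8.91, 26.1 and 20.5 in dCas9:gRNAscr replicates 1, 2 and 3. The values of the guides overlapped, and its words had a median of 285 copies. The second lay in an intron of Apool, a mitochondrial inner membrane protein, on chromosome X from 112370784 to 112371219, with 15.1, 27.8 and 16.2 for dCas9:gRNA3 and 9.82, 18.4 and 4.89 for dCas9:gRNAscr. It was the only shared region on the X chromosome, 44.7% of its words had at least 2 copies, and its highest local background was 7.22 times the genome-wide level.
In the groups on chromosome 5 near Speer4 genes, the region nearest to Gm21847 (chromosome 5, 15522155 to 15522643) had 12.4, 13.8 and 12.2 for dCas9:gRNA3 and 9.82, 7.74 and 10.6 for dCas9:gRNAscr, so that each dCas9:gRNA3 value was above each dCas9:gRNAscr value. How often the guides separate in this way over all shared regions was not counted. Such separations, here and below, are descriptions of single regions and do not measure a difference between the guides. The region in Gm17019 (15031405 to 15031732) had 7.78, 8.16 and 8.58 against 7.47, 9.82 and 11.5, which overlap. In an intron of Speer4c (15711687 to 15711979) the values were 9.58, 12.9 and 12.2 for dCas9:gRNA3 and 8.41, 8.09 and 6.07 for dCas9:gRNAscr, again without overlap. Another near Speer4c (15703280 to 15703727) had 9.77, 16.7 and 5.62 against 11.4, 7.20 and 12.5, and the guides overlapped. The regions nearest to Gm43391, Speer4cos and Gm21190 had a fold enrichment of 5.16 to 11.0 over the 6 libraries.
Away from these groups, a region between genes on chromosome 2 (181918518 to 181918779), nearest to Gm5466, had 9.63, 11.0 and 7.42 against 9.49, 6.53 and 10.2. A region in an intron of Sos2, an exchange factor for Ras (chromosome 12, 69654012 to 69654343), had 9.82, 7.09 and 7.91 against 7.86, 4.23 and 7.50. Its highest local background was 10.9 times the genome-wide level. The 4 chromosome 8 regions among the 15, nearest to Gm20946, 6820431F20Rik, Gm21182 and Gm21811, ranged from 4.21 to 9.59 over all libraries. Their ranks differed widely between libraries.

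**Figure D5:**
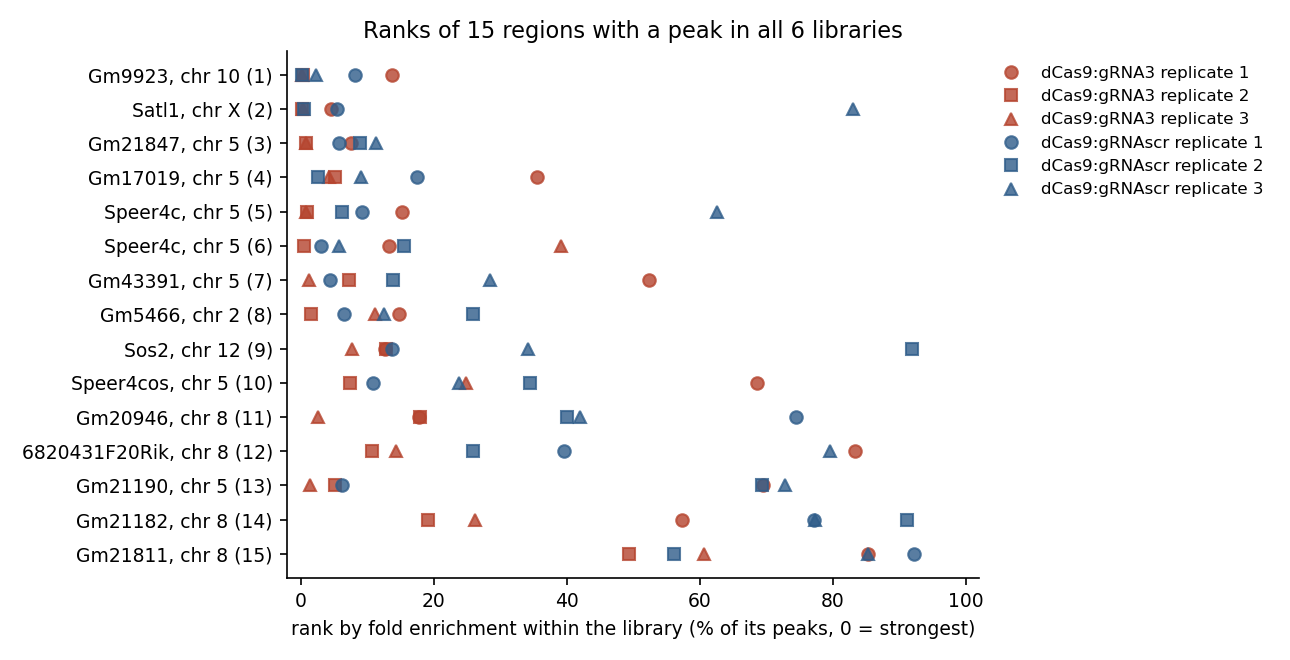
Rank by fold enrichment of 15 regions found in all 6 libraries (rows, named by nearest start), as percent of each library's peaks, where 0 is the strongest (horizontal axis; red dCas9:gRNA3, blue dCas9:gRNAscr, symbols for replicates). The first 3 rows lie near the strong end apart from dCas9:gRNAscr replicate 3 in the second, and the points of lower rows spread over most of the axis.

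Outside multicopy sequence, the regions were taken by number of libraries and then by rank, a choice made after their values were seen. The 6 found in all 6 libraries held no AP-1 letters. They were those of Apool, Gm5466 and Sos2, described above, and those in E030030I06Rik, near 4931408C20Rik and in Sfi1. The last 3 had low fold enrichment, with 5.61, 3.07 and 4.11 in dCas9:gRNA3 replicates 1, 2 and 3 and 3.44, 5.17 and 2.86 in dCas9:gRNAscr replicates 1, 2 and 3 for E030030I06Rik. For 4931408C20Rik the values were 3.92, 4.50 and 3.68 against 3.36, 4.21 and 4.82, and for Sfi1 3.64, 3.84 and 3.95 against 2.50, 2.22 and 3.34. The guides overlapped in the first pair of these and not in Sfi1, which again only describes these regions.
Of the regions in 5 libraries, the best ranked lay in an intron of Cntnap5b, a member of the neurexin superfamily, and held no AP-1 letters. It had 11.5, 11.3 and 10.5 in dCas9:gRNA3 replicates 1, 2 and 3 and 9.996 and 10.1 in dCas9:gRNAscr replicates 2 and 3, so the guides did not overlap. The next 5 in rank held AP-1 letters. A region in an intron of Pappa, a protease of IGF-binding proteins (chromosome 4, 65254079 to 65254405), had a fold enrichment of 7.05 and 10.5 in dCas9:gRNA3 replicates 2 and 3 and 9.31, 14.2 and 8.86 in dCas9:gRNAscr replicates 1, 2 and 3. One in Gid4, a subunit of a ubiquitin ligase (chromosome 11, 60436482 to 60437002), had 5.97 and 10.8 against 8.28, 11.4 and 6.22. The guides overlapped in both, and dCas9:gRNA3 replicate 1 had no peak in either. A region between genes, nearest to Map4k3, a protein kinase gene (chromosome 17, 80772752 to 80773052), had 7.78, 6.97 and 8.79 in dCas9:gRNA3 replicates 1, 2 and 3 and 5.33 and 7.57 in dCas9:gRNAscr replicates 1 and 2. The region in an exon of Pik3r3, a regulatory subunit of PI3 kinase (chromosome 4, 116300959 to 116301410), had 7.96, 8.25 and 9.13 against 6.30 and 7.22, and it had no peak in dCas9:gRNAscr replicate 3. The region near Map4k3 had none there either. The last, between genes and nearest to 1700016C15Rik, had 5.06 and 6.94 in dCas9:gRNA3 replicates 2 and 3 and 10.1, 12.2 and 6.21 in dCas9:gRNAscr replicates 1, 2 and 3.
Of the regions whose AP-1 sequence is printed above, that nearest to Gm11216 had 7.61 and 7.48 in dCas9:gRNA3 replicates 2 and 3 and 6.89 and 6.87 in dCas9:gRNAscr replicates 1 and 2. That in an intron of Nr1h4, a bile acid receptor, had 5.48 and 8.31 against 6.89 and 5.41 in the same libraries. Neither had a peak in the remaining 2 libraries. The one between genes near Gm29064 had 7.29, 5.24 and 8.52 in dCas9:gRNA3 replicates 1, 2 and 3 and 4.001 in dCas9:gRNAscr replicate 1. The one near Gm27580 had 7.16 and 8.58 in dCas9:gRNA3 replicates 2 and 3 and 7.57 in dCas9:gRNAscr replicate 2. The one between genes near Zfp334 had 6.65, 4.35 and 4.81 in dCas9:gRNA3 replicates 1, 2 and 3 and 5.50 in dCas9:gRNAscr replicate 3. The one upstream of Slit3, which encodes a secreted guidance protein, had 6.76 and 8.85 in dCas9:gRNA3 replicates 2 and 3 and 7.39 in dCas9:gRNAscr replicate 2. The guides overlapped in the regions near Nr1h4, Gm27580, Zfp334 and Slit3 and not in those near Gm11216 and Gm29064. With so few values per guide, separation in a single region is no measure of a difference between the guides.

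Genes with several shared regions in their body were also counted, and those named here were chosen for these counts. Sfi1, which encodes a centrosomal protein and spans 3131850 to 3193463 on chromosome 11, held 5, none of them multicopy by the reference. The median of their highest local backgrounds was 10.0 times the genome-wide level. Fyb, an adaptor of T cells, held 4, of which 2 had AP-1 letters, and Rcan2, a regulator of calcineurin, held 4 with none. Groups of 4 outside multicopy sequence also lay around Il1r1, Cd44, Trabd2b and Fggy. In all, 593 of the 922 regions had no other shared region within 100 kb. By chromosome, number 4 held 11.4% of shared and 6.85% of other regions, and number 14 held 0.868% and 2.32%. Chromosomes 17 and 19 held 7.05 and 4.45% of shared regions, near their 5.91 and 4.002% of other regions. The X chromosome had 1 shared region and 24 of the 6672 other regions. These shares are given with no test.

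Few genes of the lists had a shared region at a start. Of 21951 protein-coding genes, 55 (0.251%) had one within 1 kb. The counts were 0 of 24 for immediate-early and AP-1 genes, 0 of 19 for matrix genes of fibroblasts, 0 of 22 for housekeeping genes, 0 of 88 for ribosomal proteins, 0 of 14 for long noncoding RNAs and 0 of 29 for genes of other tissues. Cald1, which encodes the actin-binding caldesmon, was 1 of 21 cytoskeletal genes, with 5.37 and 6.86 in dCas9:gRNA3 replicates 2 and 3 and 3.15 in dCas9:gRNAscr replicate 2, below both. Hist1h4j, a histone H4 gene, was 1 of 83 histone genes, with 5.03 in dCas9:gRNA3 replicate 3 and 5.17 in dCas9:gRNAscr replicate 2. Of 5727 small RNA genes 7 (0.122%) had one, among them the snoRNA Gm25210 within Snhg14, whose region in 5 libraries had 6.64 and 8.29 in dCas9:gRNA3 replicates 1 and 3 and 7.07, 6.60 and 8.54 in dCas9:gRNAscr replicates 1, 2 and 3. That region was multicopy, with a median of 18 copies. Within a gene or 10 kb of it, the count was 548 of 21951 protein-coding genes (2.50%), and the listed genes with a shared region there, named for that reason, included Lox, Malat1, Gas5 and Rpl7.

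Detection in a library that had not chosen the regions was then compared between regions of both guides and of a single guide. With each library held out in turn, regions with peaks in exactly 2 of the other 5 libraries were taken, either 1 of each guide or both of the same guide. In dCas9:gRNA3 replicates 1, 2 and 3 the held-out library had a peak in 0.732, 45.4 and 87.5% of the regions of both guides and in 9.50, 62.9 and 77.5% of the regions of a single guide. In dCas9:gRNAscr replicates 1, 2 and 3 it had one in 9.69, 48.7 and 0.741% against 3.41, 24.5 and 1.69%. Regions of both guides were found more often in 3 of 6 libraries, with a mean difference of 2.21 ± 14.7 percentage points (two-sided exact permutation test, p = 0.75). The classes also differed in the libraries that chose them. They held 410 and 1011 regions with dCas9:gRNA3 replicate 1 held out, and 76 and 1198 with dCas9:gRNAscr replicate 2 held out. Regions of a single guide could be of the held-out library's guide or of the other. The test therefore cannot tell whether sharing as such goes with detection.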

How the data were processed

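NIH-3T3 cells with dCas9:gRNA3 or dCas9:gRNAscr were assayed by anti-FLAG ChIP-seq, in 12 samples of which the 6 anti-FLAG libraries have peak lists. The labels give each library's guide and replicate number. The authors trimmed reads with Trim Galore 0.6.4, aligned them with Bowtie2 2.3.4.1 to mm10 and called peaks per library with MACS2 2.2.7.1 (fragments extended to 204 bp), per the methods and the submitters' processing notes. Replicates were not pooled. The printed command names no control, and a figure legend names the input. The authors' deposited score derives from the q-value, and the deposited −log10 p-values and −log10 q-values are those of the summit. The deposited fold enrichment was taken as the ratio of pileup to local background at the summit, with 1 added to each. Read counts were not analysed here.

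Positions were made 1-based and annotated with GRCm38.p6 (mm10) and GENCODE M21. The representative summit of a region is that of its peak with the best rank within its library. Pileup and local background were solved from fold enrichment and p-value. A pileup within 0.05 reads of a whole number was found for 99.97% of peaks in dCas9:gRNA3 replicate 3 and 100% in the other libraries, and the solution recovered 100% of 291 and of 2913 simulated peaks. It gave 21.6 to 28.8 M anti-FLAG and 8.80 to 16.6 M input reads, at a genome size of 1870000000 bp and scaled to the input. These numbers are solved, not counted, and rest on the input having been the control. The lists held 88 to 6685 peaks and did not follow the solved anti-FLAG depth: the longest came from the library with the fewest solved anti-FLAG reads. That library, dCas9:gRNA3 replicate 3, had the most input reads by this solution, at 16.6 M. The shortest lists, of 197 and 88 peaks, came from dCas9:gRNA3 replicate 1 and dCas9:gRNAscr replicate 3, with 8.80 and 8.89 M input reads. Between these, dCas9:gRNAscr replicates 1 and 2 had 293 and 1163 peaks at 11.55 and 10.95 M, and dCas9:gRNA3 replicate 2 had 2052 at 15.62 M. The part of input depth in the number of peaks was not tested.

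The library was the unit. Within-library differences were tested by two-sided exact permutation of their signs, with Benjamini-Hochberg adjustment and a threshold of 0.05. Regions named are 15 of the 18 with a peak in all 6 libraries by median rank, list members at starts, the edges of the rule and the study's controls. Other regions and genes were named with their values known. The members and lists were chosen with earlier results of these data known. Alternatives were stricter peak thresholds, other overlaps, distances, windows and supports, and each library left out. By the labels, same-numbered libraries share only a number. Regions on unplaced contigs were left out. Python 3.11.15 was used with numpy 2.4.6, pandas 2.3.3, scipy 1.17.1, numba 0.67.0, pysam 0.24.0, matplotlib 3.10.9 and samtools 1.23.1.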

Additional observations from a re-analysis of the deposited data

Results flagged for a closer look

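The difference between shared and other peaks in NGG sites within 200 bp of the summit went opposite ways for the guides. Shared peaks had fewer than other peaks in every dCas9:gRNA3 library (differences of -2.5 to -2) and more in every dCas9:gRNAscr library (0.5 to 3). The medians of shared peaks were close, with 53, 52 and 52 in dCas9:gRNA3 replicates 1, 2 and 3 and 51, 52 and 50 in dCas9:gRNAscr replicates 1, 2 and 3. Those of other peaks lay farther apart, at 55.5, 54 and 54 against 50.5, 49 and 47.5. The difference between the guides was -4.17 sites (two-sided exact permutation test, p = 0.1, the smallest that 3 libraries against 3 allow). The direction over all 6 libraries changed with the processing. NGG sites were counted as GG or CC pairs, so their number is tied to G+C. Median G+C of other peaks was 49.4, 49.1 and 48.9% in dCas9:gRNA3 replicates 1, 2 and 3 and 47.1, 47.1 and 48.1% in dCas9:gRNAscr replicates 1, 2 and 3. Shared peaks differed from these by -1.50, -0.998 and -0.748 and by 0.623, 0.748 and -0.499 percentage points. The part of G+C was not tested.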

How the results depend on the processing

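The number of shared regions was 341 for peaks with −log10 q from 5 and 137 with at least 2 libraries of each guide, and 248 to 922 with 1 library left out. Differences that were not past the threshold changed direction as follows. For NGG sites it was 0.0833 and 0.333 for −log10 q from 3 and from 5, 0.167 with an overlap of 0.5, 2.25 for peaks at or above the median fold enrichment, 0.25 in windows of 100 bp to either side and 0.167 without multicopy regions. For the share at starts it was -0.204 with protein-coding starts and -1.30 without multicopy regions, and for the share in genes -0.532 for −log10 q from 3. G+C gave 0.0623 for peaks at or above the median fold enrichment, masked bases -0.694 without multicopy regions, and held-out detection -1.17 for −log10 q from 3. AP-1 letters against other peaks passed the threshold at 8.80 without multicopy regions. Between the guides, the share at starts gave 0.0677 within 500 bp, 2.14 within 2 kb and 0.426 with protein-coding starts. The cause of these changes was not tested.

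With 1 library left out, 5 libraries allow no p below 0.0625, so no test could pass. The differences then ranged from -1.1 to 0.7 for NGG sites, -0.270 to 1.86 for genes, -5.07 to 21 for held-out detection, -1.64 to 0.768 for starts between the guides, -0.481 to 4.32 for AP-1 letters against other peaks, 9.79 to 27.3 for multicopy sequence, 23.0 to 26.6 for AP-1 letters against the flanks, 4.98 to 5.66 for G+C against the flanks and -18.8 to -17.3 for masked bases against the flanks. In the replicate block, which paired same-numbered libraries, the guides differed by -0.628 (3 pairs, exact permutation test, p = 1, smallest 0.25). The correlation of their deviations in the presence of a peak over the shared regions was -0.0214, -0.0621 and -0.130. The rule used this presence to choose the regions, so these values cannot tell whether the numbers pair the samples. Of 186 values under alternatives, 136 kept direction and side of the threshold or, for 7 that were numbers of regions, stayed within 1.5 times the number reported. The setting without multicopy regions was chosen after seeing the data.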
